A study of Mus musculus with 9 samples.

Results

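The enzymes that write, copy and remove DNA methylation, and a maternal factor that shields it, were followed at the RNA level in metaphase II mouse oocytes. The group had 9 genes of the 24736 in the deposited tables: the methyltransferases Dnmt1, Dnmt3a and Dnmt3b, their catalytically inactive partner Dnmt3l, the maintenance cofactor Uhrf1, the dioxygenases Tet1, Tet2 and Tet3, and the protector Dppa3, also called Stella. They were chosen by gene symbol with the CPM values of these same libraries in view (CPM, a gene's count relative to its library total), so their levels and differences are given as a description and without p-values. All 9 were found, and all 9 passed the filter on low counts.

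The study asked how chronic stress and a herbal recipe alter the oocyte transcriptome, in female ICR mice labelled as 4 to 5 weeks old, without a statement of whether that age is before or after the treatment weeks. In the KYZY group, 3 mice were stressed for 6 weeks and then given 0.1 ml a day of the Kai Yu Zhong Yu (KYZY) decoction by gavage for 4 weeks. In the stress group, 3 mice underwent 6 weeks of the chronic unpredictable mild stress model, in which 1 stressor a day was applied: tail pinch, a swim in cold water, loss of food or water, wet bedding, continuous light or restraint. The control group was 3 mice without stress. All 9 mice were superovulated with 7.5 IU of PMSG and 7.5 IU of hCG, and 15 oocytes per mouse, freed of cumulus cells with hyaluronidase, were taken 16 hours later as 1 library. The labels describe no stressed group given a vehicle by gavage. Cluster generation is described for the stress and control libraries and a Novaseq run for the KYZY libraries, so the recipe, the 4 further weeks and the sequencing run cannot be told apart in any KYZY comparison.

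In oocyte growth, Dnmt3a acts with Dnmt3l to lay down methylation de novo, including that of maternally imprinted regions. Uhrf1 recognises hemimethylated DNA and brings in Dnmt1, which copies the mark to the new strand. Tet enzymes oxidise 5-methylcytosine, and in the zygote the maternally supplied Tet3 acts mainly on the paternal genome, while Dppa3 protects the maternal genome from oxidation and also keeps Uhrf1 out of the oocyte nucleus. A metaphase II oocyte is transcriptionally silent, so its mRNA levels are those of a store that was made earlier and is being translated and degraded.

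The promoters of the methylation genes differ widely in their own content of CpG, the dinucleotide that these enzymes methylate. The following 6 windows of the RefSeq table for GRCm38.p6 are shown because they cover the member with the largest difference between groups (Tet1), the other Tet genes, Dnmt3b, and both ends of the CpG range of Dnmt1. Each window runs from 250 bases before to 50 bases after the transcription start, on the strand of the gene, and capitals mark each CG.
Tet1, chr10:62887275-62887574, minus strand: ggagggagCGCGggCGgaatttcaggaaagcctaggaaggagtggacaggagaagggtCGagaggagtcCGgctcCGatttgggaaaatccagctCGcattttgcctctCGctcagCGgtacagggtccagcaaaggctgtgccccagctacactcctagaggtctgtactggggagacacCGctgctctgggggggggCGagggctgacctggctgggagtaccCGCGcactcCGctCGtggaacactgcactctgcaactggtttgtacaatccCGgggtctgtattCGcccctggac
Tet2, chr3:133544341-133544640, minus strand: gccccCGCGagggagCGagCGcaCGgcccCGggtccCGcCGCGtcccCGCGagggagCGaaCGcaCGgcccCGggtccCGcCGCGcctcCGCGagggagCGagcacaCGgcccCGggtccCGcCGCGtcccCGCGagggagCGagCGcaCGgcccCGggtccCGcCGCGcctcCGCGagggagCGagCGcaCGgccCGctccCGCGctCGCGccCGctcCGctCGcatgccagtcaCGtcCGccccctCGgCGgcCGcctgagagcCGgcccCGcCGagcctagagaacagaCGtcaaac
Tet3, chr6:83441629-83441928, minus strand: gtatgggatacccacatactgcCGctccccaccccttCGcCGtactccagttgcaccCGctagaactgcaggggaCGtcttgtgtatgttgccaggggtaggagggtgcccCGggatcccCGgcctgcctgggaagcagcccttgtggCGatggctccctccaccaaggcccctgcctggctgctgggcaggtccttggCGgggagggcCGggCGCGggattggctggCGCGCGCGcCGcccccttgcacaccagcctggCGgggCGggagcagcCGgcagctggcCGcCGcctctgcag
Dnmt3b, chr2:153649199-153649498, plus strand: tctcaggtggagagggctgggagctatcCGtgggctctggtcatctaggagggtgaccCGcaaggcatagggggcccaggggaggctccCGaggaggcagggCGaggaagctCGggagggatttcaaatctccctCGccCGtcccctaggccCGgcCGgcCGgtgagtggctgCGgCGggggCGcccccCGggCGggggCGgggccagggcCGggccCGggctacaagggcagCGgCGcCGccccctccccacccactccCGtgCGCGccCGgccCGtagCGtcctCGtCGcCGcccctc
Dnmt1 upstream start, chr9:20959839-20960138, minus strand: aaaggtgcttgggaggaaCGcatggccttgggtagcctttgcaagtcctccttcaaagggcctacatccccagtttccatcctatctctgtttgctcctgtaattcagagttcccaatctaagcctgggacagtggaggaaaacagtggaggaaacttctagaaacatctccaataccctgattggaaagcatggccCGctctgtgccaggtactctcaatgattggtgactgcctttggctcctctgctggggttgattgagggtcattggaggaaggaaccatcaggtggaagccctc
Dnmt1 CpG-rich start, chr9:20952574-20952873, minus strand: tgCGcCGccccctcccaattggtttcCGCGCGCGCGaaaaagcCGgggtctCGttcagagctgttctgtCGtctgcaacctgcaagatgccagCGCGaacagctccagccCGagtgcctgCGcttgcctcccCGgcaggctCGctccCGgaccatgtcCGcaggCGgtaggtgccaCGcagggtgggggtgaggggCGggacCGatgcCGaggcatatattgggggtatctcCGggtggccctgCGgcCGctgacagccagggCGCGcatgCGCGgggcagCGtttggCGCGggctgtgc

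CG reads the same on both strands, and 94.6% of the 32851 promoters in the table hold at least 1, with a median of 7 per window. The Tet2 window held 57 CpG, a number reached or passed by 0.152% of all promoters. The Tet3 window held 22 (23.1% of promoters had at least as many), the Tet1 window 17 (31.4%) and the Dnmt3b window 30 (11.7%). The Dnmt3b start lies in an intron of the antisense gene Dnmt3bos, and exons of Dnmt3b coding transcripts overlap no exon of another gene. Dnmt1 had 3 RefSeq starts: the most upstream window held 2 CpG (85.9%), and the others held 12 (39.6%) and 33 (8.56%). In mouse, the oocyte form of Dnmt1 is transcribed from a first exon upstream of the one used in somatic cells. The 3 Dnmt3l windows held 6, 4 and 3 CpG, and the first of these starts lies in an intron of Aire on the opposite strand. The 3 Dnmt3a windows held 46, 47 and 18, the last at an internal start, and the 2 Uhrf1 windows held 12 and 33. Of the 9 members, 8 had an entry, with 15 windows in all, and Dppa3 had none. The counts are per gene and sum over starts, so which start gave the RNA was not measured.

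Total counts were 46324094 to 106990821 per library, and 13257 to 15802 genes had a value above 0. The 10 oocyte markers were all detected in every library, with summed levels of 19060 to 34750 CPM in KYZY, 23380 to 28850 CPM in stress and 19340 to 29230 CPM in control oocytes. Of 18 cumulus and granulosa markers, 2 to 10 were at 0 in KYZY, 3 to 10 in stress and 2 to 13 in control libraries, including Pgr and Areg at 0 in all 9. Their summed level was 22.24 to 649.1 CPM in KYZY, 12.38 to 55.47 CPM in stress and 12.4 to 347.9 CPM in control libraries, highest in KYZY 3, control 3 and KYZY 2. Stroma and endothelium markers summed to 72.99 CPM in KYZY 3 and 62.69 CPM in control 3, against 20.13 to 30.74 CPM elsewhere. Most of the level elsewhere was Pecam1, at 17.47 of 20.13 CPM in KYZY 2 and 27.26 of 30.74 CPM in control 2. Pecam1 was 14.69 CPM in KYZY 3 and 17.05 CPM in control 3, so the other markers carried the higher sums there. The mean log2(CPM + 1) of 8 oviduct markers was 2.46 in KYZY 3 and 2.19 in control 3, against 1.13 to 1.62 elsewhere. In bulk samples of this kind, fewer cells of a type and less RNA per cell cannot be told apart.

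**Figure D1:**
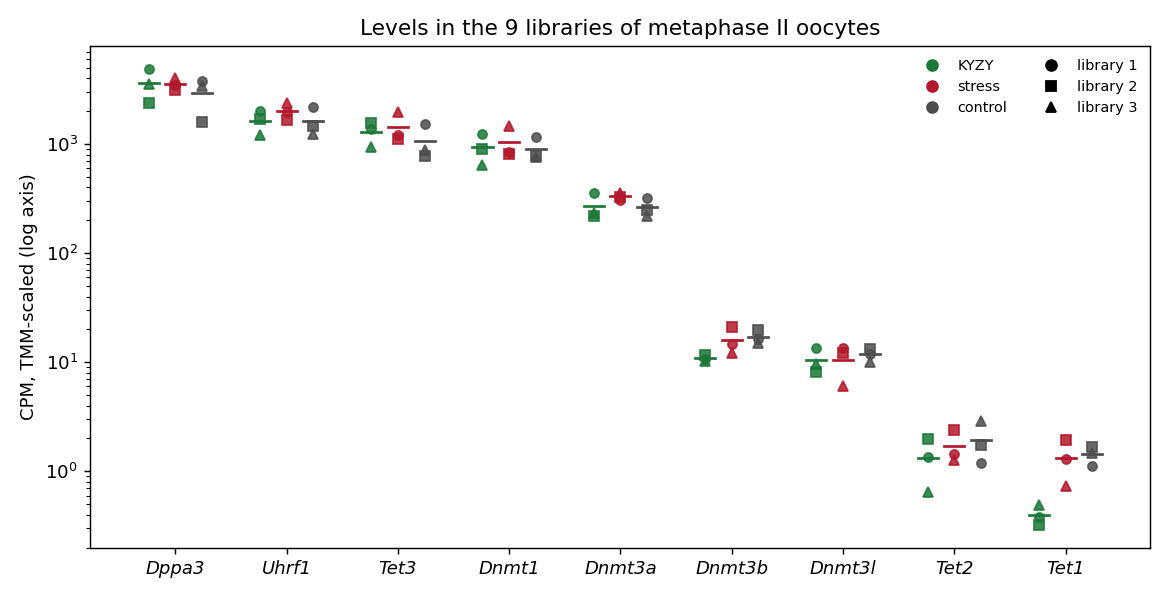
CPM of the 9 members on a log axis, after TMM scaling (trimmed mean of M values), in KYZY, stress and control oocytes; each point is 1 library (circle, square and triangle for libraries 1, 2 and 3) and each bar is a group mean. The 5 members of highest mean lie at or above 217.9 CPM in every library, Dnmt3b and Dnmt3l between 6.038 and 20.86 CPM, and Tet1 and Tet2 at or under 2.878 CPM.

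Among the 9 members, Dppa3, Uhrf1, Dnmt1 and Tet3 had the highest RNA levels. Divided by the length of the longest coding transcript, the mean levels over 9 libraries were 4031 CPM per kb for Dppa3, 489.1 for Uhrf1, 162.4 for Dnmt1, 115.8 for Tet3, 29.66 for Dnmt3a, 6.009 for Dnmt3l, 3.377 for Dnmt3b, 0.1811 for Tet2 and 0.07293 for Tet1. This order held in 9 of 9 libraries. Across libraries the ranges of neighbours overlapped for Dnmt1 and Tet3, which differed 1.40-fold in mean, for Dnmt3l and Dnmt3b (1.78-fold) and for Tet2 and Tet1 (2.48-fold). The other neighbours did not overlap, and the widest step was the 18.6-fold one between Dnmt3b and Tet2. The order depends on the division by length. Without it, mean CPM was higher for Tet3 (1263) than for Dnmt1 (953.5), and for Dnmt3b (14.59) than for Dnmt3l (10.95). The 9 members together took 0.742% ± 0.0896 of all counts in KYZY oocytes, 0.807% ± 0.0468 in stress oocytes and 0.702% ± 0.0862 in control oocytes (SD over 3 mice in each group).

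Of all 13890 genes tested with edgeR's quasi-likelihood test, 0 (0%) reached a Benjamini-Hochberg adjusted p under 0.05 in each of the 3 comparisons, the members included. At an unadjusted p under 0.05 there were 373 genes in stress against control, 553 in KYZY against stress and 380 in KYZY against control, and DESeq2 called 22, 13 and 1 genes in the same order of comparisons, with 0 members among them. Over all genes, the log2 fold changes in stress against control had a median standard error of 0.396, so changes of a size near that were not detectable with 3 mice a group. A simple description is whether the 3 libraries of a group all lie beyond the 3 of the other. In stress against control, no member was apart in either direction, against 3.51% of all genes apart and higher and 4.38% apart and lower. In KYZY against stress, Tet1 and Dnmt3b were apart and lower and no member was apart and higher, against 5.44% and 3.76% of all genes. In KYZY against control, Tet1 and Dnmt3b were apart and lower and none was apart and higher, against 4.79% and 2.43% of all genes. The members were chosen with these values in view, so nothing is read from these counts. The comparisons share libraries: KYZY serves in the last 2, stress in the first 2, and control in the first and the last.

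The maintenance pair, Dnmt1 and Uhrf1, was abundant in every library and its groups overlapped. Dnmt1 (chromosome 9, 20907206 to 20959888, GRCm38) copies methylation after replication. It stood at 1237, 901.1 and 646.7 CPM in KYZY libraries 1, 2 and 3, at 841.7, 810.9 and 1455 CPM in stress libraries, and at 1162, 769.8 and 756.1 CPM in control libraries. The high libraries were stress 3, KYZY 1 and control 1, 1 in each group, and the groups overlapped fully. The mean was 928.4 ± 296 CPM in KYZY, 1036 ± 363 CPM in stress and 896.1 ± 231 CPM in control oocytes (n = 3 mice a group, SD). Its log2 fold change was 0.21 (SE 0.344) in stress against control, or -0.21 without the 4 libraries of highest cumulus marker score, and it was -0.16 (SE 0.344) in KYZY against stress, or 0.60 without those libraries, and 0.05 in KYZY against control. All 3 differences fitted over 9 libraries were smaller than their standard errors.

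Uhrf1 (chromosome 17, 56303337 to 56323486) is the reader that recruits Dnmt1. It stood at 2002, 1695 and 1220 CPM in KYZY libraries, at 1973, 1643 and 2363 CPM in stress libraries and at 2204, 1451 and 1234 CPM in control libraries. The lowest values were in KYZY 3 and control 3, and every pair of groups overlapped. Uhrf1 had a log2 fold change of 0.29 (SE 0.315) in stress against control, -0.28 (SE 0.315) in KYZY against stress and 0.01 in KYZY against control. The count ratio of Uhrf1 to Dnmt1 was 1.795 ± 0.154 in KYZY, 1.998 ± 0.361 in stress and 1.804 ± 0.149 in control oocytes (SD over 3 mice in each group). The 9 libraries ranged from 1.618 to 2.345 in this ratio, with stress 1 the highest.

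Among the de novo methyltransferases, Dnmt3a made up nearly all of the RNA and Dnmt3b was the member whose KYZY libraries lay lowest. Dnmt3a (chromosome 12, 3801559 to 3914443), the de novo enzyme of the growing oocyte, stood at 355.7, 219.9 and 233.6 CPM in KYZY libraries, at 306, 326.1 and 358.2 CPM in stress libraries and at 321.9, 245.7 and 217.9 CPM in control libraries. The stress libraries were all above 300 CPM, but KYZY 1 and control 1 fell in their range. For Dnmt3a the log2 fold change was 0.33 (SE 0.256) in stress against control, -0.29 (SE 0.256) in KYZY against stress and 0.04 in KYZY against control. Exons of Dnmt3a overlap those of the antisense gene Dnmt3aos, and the libraries carry no strand, so reads of the overlap cannot be assigned to either. Of the counts of Dnmt3a and Dnmt3b together, Dnmt3a held 95.9% ± 1.08 in KYZY, 95.4% ± 1.38 in stress and 93.8% ± 1.29 in control oocytes (n = 3 mice a group, SD).

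Dnmt3b (chromosome 2, 153649411 to 153687730), the main de novo enzyme of the early embryo after implantation, stood at 10.72, 11.76 and 10.22 CPM in KYZY libraries, at 14.68, 20.86 and 12.06 CPM in stress libraries and at 16.3, 19.54 and 15.13 CPM in control libraries. All 3 KYZY libraries were lower than every stress and control library, by a small margin against stress 3. The mean was 10.9 ± 0.784 CPM in KYZY, 15.87 ± 4.52 CPM in stress and 16.99 ± 2.28 CPM in control oocytes (SD over 3 mice in each group). The log2 fold change was -0.54 (SE 0.232) in KYZY against stress, -0.64 (SE 0.232) in KYZY against control and -0.10 (SE 0.231) in stress against control. Scaled by plain library totals, KYZY 2 (11.8 CPM) and KYZY 3 (10.82 CPM) both lay above stress 3 (9.639 CPM), so these groups overlapped. The highest KYZY library stayed lower than control 1 at 14.33 CPM. The paralogue Dnmt3c, which lies next to Dnmt3b, was not analysed here, and reads of near-identical exons could be split between them.

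Dnmt3l (chromosome 10, 78042287 to 78063622), the cofactor that stimulates Dnmt3a, stood at 13.63, 8.193 and 9.692 CPM in KYZY libraries, at 13.41, 12.27 and 6.038 CPM in stress libraries and at 11.84, 13.32 and 10.14 CPM in control libraries. The groups overlapped, and stress 3 was the lowest of the 9. The log2 fold change was -0.15 (SE 0.315) in stress against control, -0.01 (SE 0.316) in KYZY against stress and -0.16 in KYZY against control. The count ratio of Dnmt3a to Dnmt3l was 25.68 ± 1.42 in KYZY, 36.24 ± 20.1 in stress and 22.37 ± 4.44 in control oocytes (n = 3 mice a group, SD). The spread in stress came from stress 3 alone, at 59.32, where Dnmt3l was at its lowest under TMM scaling and plain totals. Dnmt3a was at its highest there only under TMM scaling. With plain totals it was 286.3 CPM in stress 3, against 330.9 CPM in stress 1 and 349.4 CPM in stress 2.

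**Figure D2:**
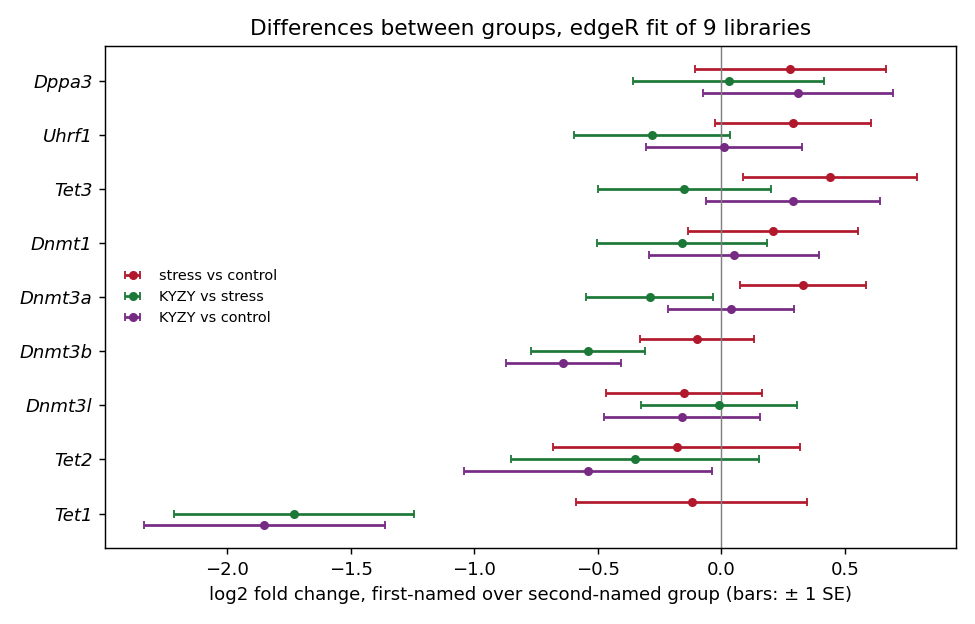
Log2 fold change of each member in stress against control (red), KYZY against stress (green) and KYZY against control (purple), as points with bars of 1 standard error from the edgeR fit of 9 libraries. Tet1 stands farthest from 0, at -1.73 and -1.85 in the KYZY comparisons, followed by Dnmt3b at -0.54 and -0.64.

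Tet3 was the Tet gene of these oocytes, and Tet1, at 5.5 to 55 read pairs per library, was the member with the largest difference. Tet3 (chromosome 6, 83362373 to 83457208), which oxidises 5-methylcytosine in the zygote, stood at 1380, 1551 and 948 CPM in KYZY libraries, at 1221, 1118 and 1965 CPM in stress libraries and at 1513, 782.1 and 886.6 CPM in control libraries. Stress 3 was the highest, control 2 and 3 were the lowest, and control 1 lay within the stress range. The mean was 1293 ± 311 CPM in KYZY, 1435 ± 462 CPM in stress and 1061 ± 396 CPM in control oocytes (SD over 3 mice in each group). In the fit, its log2 fold change was 0.44 (SE 0.352) in stress against control, the largest of the members in that comparison, and it ranged from 0.04 without the 4 libraries of highest cumulus marker score to 0.78 without control 1. It was -0.15 (SE 0.351) in KYZY against stress and 0.29 (SE 0.352) in KYZY against control. Tet3 held 99.51% to 99.9% of the counts of the 3 Tet genes in every library.

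Taken relative to Dnmt1 in the same library, which removes the scaling between libraries, Tet3 was 1.115, 1.721 and 1.466 in KYZY, 1.45, 1.379 and 1.351 in stress, and 1.302, 1.016 and 1.173 in control libraries. The 3 stress ratios all lay above the 3 control ratios, and the KYZY ratios spanned both. The mean ratio of counts was 1.434 ± 0.304 in KYZY, 1.393 ± 0.0515 in stress and 1.163 ± 0.143 in control oocytes (n = 3 mice a group, SD). This ratio was picked among 9 measures after its values were seen and was not tested.

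Tet1 (chromosome 10, 62804570 to 62887469), the Tet enzyme best known from embryonic stem cells and primordial germ cells, stood at 0.379, 0.323 and 0.4897 CPM in KYZY libraries, at 1.3, 1.919 and 0.7295 CPM in stress libraries and at 1.124, 1.681 and 1.484 CPM in control libraries. All 3 KYZY libraries were lower than every other library, and the nearest was stress 3. The mean was 0.397 ± 0.0848 CPM in KYZY, 1.316 ± 0.595 CPM in stress and 1.43 ± 0.282 CPM in control oocytes (SD over 3 mice in each group). The log2 fold change was -1.73 (SE 0.486) in KYZY against stress, a ratio of 0.302, and -1.85 (SE 0.488) in KYZY against control, a ratio of 0.278. In stress against control it was -0.12 (SE 0.467), with overlapping groups.

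Depth limits what can be said of Tet1. A read pair appeared to be worth about 4 counts in these tables, so the Tet1 counts of 24, 22 and 24 in KYZY libraries come to about 6.0, 5.5 and 6.0 read pairs. Summed over 3 libraries, there were 17.5 read pairs in KYZY (95% exact Poisson interval 10.3 to 27.8), 93.25 in stress (75.3 to 114) and 89.5 in control oocytes (71.9 to 110). These intervals cover counting error only, since PCR copies were not told apart by molecular identifiers, and the sums are not scaled for depth. Per library, the intervals were 0.139 to 0.825, 0.112 to 0.726 and 0.18 to 1.07 CPM in KYZY 1, 2 and 3. Those of stress 3 (0.374 to 1.28 CPM) and control 1 (0.655 to 1.80 CPM) overlapped all 3 of them, and those of stress 1 (0.853 to 1.90 CPM) and control 3 (0.99 to 2.14 CPM) overlapped that of KYZY 3. Scaled by plain totals, the KYZY libraries had 0.3234, 0.324 and 0.5181 CPM, and the nearest other library, stress 3, had 0.5831 CPM. The summed cumulus level was 22.24, 316.8 and 649.1 CPM in KYZY libraries 1, 2 and 3, 12.38, 25.58 and 55.47 CPM in stress libraries and 12.4, 26.29 and 347.9 CPM in control libraries, and its part in the Tet1 difference was not tested.

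**Figure D3:**
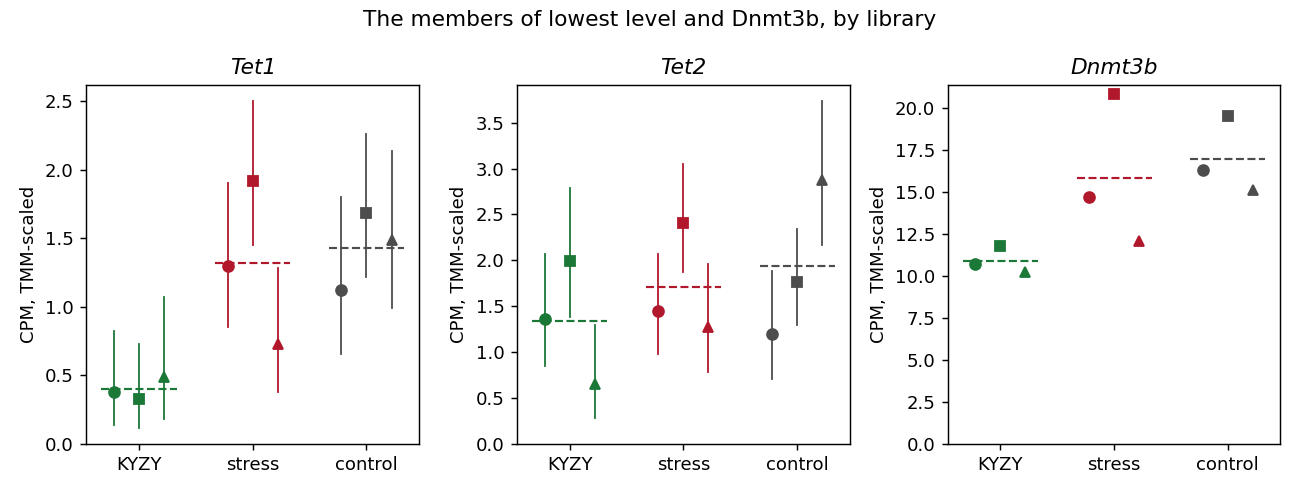
TMM-scaled CPM of Tet1, Tet2 and Dnmt3b by library, with circles, squares and triangles for libraries 1, 2 and 3, dashed lines for group means and, for Tet1 and Tet2, vertical lines for the 95% exact Poisson interval of the read pairs. The KYZY points lie below all others for Tet1 and Dnmt3b, while the groups overlap for Tet2.

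Tet2 (chromosome 3, 133463677 to 133545136), the Tet enzyme best known from blood cells, stood at 1.358, 1.997 and 0.6529 CPM in KYZY libraries, at 1.447, 2.408 and 1.273 CPM in stress libraries and at 1.191, 1.758 and 2.878 CPM in control libraries. The groups overlapped, with KYZY 3 the lowest and control 3 the highest. The log2 fold change was -0.18 (SE 0.50) in stress against control and 0.22 without control 3, and it was -0.35 (SE 0.502) in KYZY against stress and -0.54 (SE 0.503) in KYZY against control, or -0.11 without control 3. Summed read pairs were 63.5 in KYZY (95% exact Poisson interval 48.8 to 81.2), 119 in stress (98.6 to 142) and 119.2 in control oocytes (98.8 to 143). Tet2 shares exonic sequence with the antisense gene Gm42567, which counts without strand cannot separate.

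Dppa3 (chromosome 6, 122626424 to 122630271), which protects the maternal genome from oxidation, was the most abundant member and ranked 41 of 13890 genes by mean CPM. It stood at 4893, 2372 and 3571 CPM in KYZY libraries, at 3495, 3135 and 4000 CPM in stress libraries and at 3777, 1583 and 3396 CPM in control libraries. The stress libraries were close together, while KYZY and control each held 1 low library, KYZY 2 and control 2. The mean was 3612 ± 1260 CPM in KYZY, 3543 ± 434 CPM in stress and 2919 ± 1170 CPM in control oocytes (n = 3 mice a group, SD). Fitted over all libraries, its log2 fold change was 0.28 (SE 0.386) in stress against control, -0.03 without control 2, and it was 0.03 (SE 0.386) in KYZY against stress and 0.31 (SE 0.386) in KYZY against control. The count ratio of Dppa3 to Uhrf1, its target in the oocyte, was 2.257 ± 0.781 in KYZY, 1.791 ± 0.109 in stress and 1.852 ± 0.839 in control oocytes (SD over 3 mice in each group), with overlap between all groups. A pseudogene, Dppa3-ps, lies on the X chromosome, and its reads could be split from those of Dppa3 in ways the tables do not show.

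Some differences turned sign without the 4 libraries of highest cumulus marker score (KYZY 2, KYZY 3, stress 3 and control 3), where KYZY 1 is the lone KYZY library. In KYZY against stress the log2 fold change was then 0.60 for Dnmt1, 0.16 for Uhrf1, 0.19 for Dnmt3a, 0.25 for Tet3 and 0.10 for Dnmt3l, and that of Dppa3 was 0.58 in place of 0.03. In stress against control it was -0.21 for Dnmt1, 0.21 for Tet1, 0.40 for Tet2 and 0.04 for Dnmt3l, and in KYZY against control it was 0.14 for Dnmt3l.

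The spread of the members over libraries differed between TMM scaling and plain totals. Stress 3, KYZY 1 and control 1 had the lowest TMM factors, 0.7994, 0.8532 and 0.8788, and were the highest libraries of their groups for Dnmt1. The summed oocyte markers were also highest there, at 34750 CPM in KYZY 1, 28850 CPM in stress 3 and 29230 CPM in control 1. With plain library totals in place of TMM, the coefficient of variation over 9 libraries was 15.3% instead of 28.2% for Dnmt1, 15.6% instead of 20.1% for Dnmt3a, 16.0% instead of 23.4% for Uhrf1, 18.9% instead of 30.0% for Tet3 and 21.0% instead of 28.2% for Dppa3. For the members of low level it went the other way: it was 36.9% instead of 26.0% for Dnmt3b, 31.5% instead of 24.0% for Dnmt3l, 65.3% instead of 56.5% for Tet1 and 47.4% instead of 40.8% for Tet2. Plain totals were added after the TMM values had been seen.

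**Figure D4:**
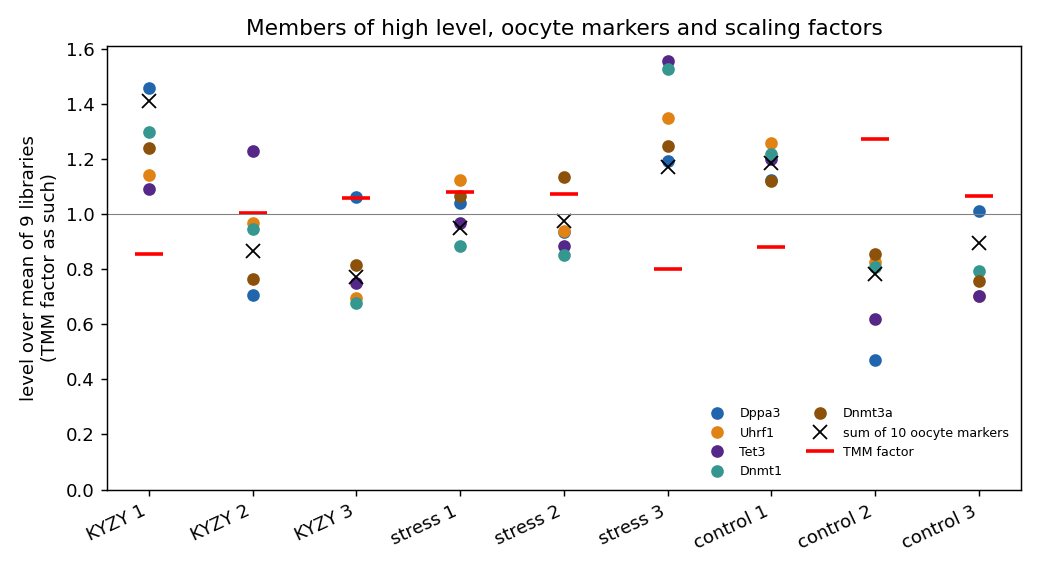
Level of the 5 abundant members and of the summed oocyte markers, each divided by its mean over 9 libraries, beside the TMM factor of the library (red bars). KYZY 1, stress 3 and control 1, with factors of 0.8532, 0.7994 and 0.8788, carry the high values of Dnmt1, and control 2, with a factor of 1.273, carries the lowest Dppa3.

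Genes whose pattern over the 9 libraries was closest to a member were found among 5113 genes with a mean of at least 10 CPM, by the root mean square difference of centred log2(CPM + 1) values. For Uhrf1 they were Slc39a6 (0.0543), Kit, the receptor tyrosine kinase of the oocyte surface (0.0694), and Med17 (0.0804), against a spread of Uhrf1 itself of 0.347 (SD of log2 values). For Dnmt3a they were Hadha (0.0645), Phf8 (0.086) and Sec16a (0.0972), and for Tet3 they were Sf1 (0.0798), Mtus1 (0.0817) and Ski (0.099). For Dnmt1 the closest were Lamb1 (0.108), Poc5 (0.109) and Arcn1 (0.116), and for Dppa3 they were Ldhb (0.126), Btf3 (0.139) and Eif2s2 (0.157). For Dnmt3b they were Eri2 (0.118), Clcn3 (0.127) and Zfp692 (0.138), and for Dnmt3l they were Stk40 (0.103), Lmf2 (0.108) and Kcnh1 (0.111). All libraries enter each value, so the measure also reflects the library scaling. Tet1 and Tet2 fell under the minimum of 10 CPM.

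Genes that work with the methylation enzymes were described by list, and 0 members of any list passed the test in any comparison. In stress against control, 46% of all genes were higher and the median log2 fold change was -0.03. Of 15 kept maintenance partners, 7 were higher and 8 lower in stress. Nlrp14, an oocyte protein that stabilises Uhrf1 in mouse, averaged 2295 ± 505 CPM in KYZY, 3210 ± 1590 CPM in stress and 2286 ± 528 CPM in control oocytes (n = 3 mice a group, SD), with stress 3 at 5000 CPM. Zbtb24, a factor mutated in a human immunodeficiency with DNA hypomethylation, averaged 16.13 ± 1.53 CPM in KYZY, 18.13 ± 2.67 CPM in stress and 21.89 ± 2.08 CPM in control oocytes. Its KYZY libraries all lay below its control libraries, as did those of 4.79% of all genes.

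Of 10 genes of imprint protection, 7 were higher and 3 lower in stress against control, with a median log2 fold change of 0.12. Zfp57, which binds methylated imprinted regions, was the most abundant at 7896 ± 1930 CPM in KYZY, 9144 ± 597 CPM in stress and 7620 ± 1980 CPM in control oocytes (SD over 3 mice in each group). Setdb1, the H3K9 methyltransferase recruited to the same regions, and Dmap1, a partner of Dnmt1, had log2 fold changes of 0.27 (SE 0.303) and -0.61 (SE 0.336) in that comparison. Of 9 genes of histone marks that guide methylation, 7 were higher and 2 lower, and Nsd1, which places H3K36 methylation, averaged 494.8 ± 197 CPM in KYZY, 511.9 ± 30.9 CPM in stress and 423.2 ± 81 CPM in control oocytes. Kmt2b, an H3K4 methyltransferase, and Setd2, an H3K36 methyltransferase, had log2 fold changes of 0.35 (SE 0.202) and -0.01 (SE 0.243). The groups overlapped for each of these 6 genes.

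Of 16 kept genes of base excision, the route that removes oxidised cytosines, 7 were higher and 9 lower in stress against control. Its glycosylase Tdg was at or under 0.2349 CPM in every library and was not kept, while Neil3, another glycosylase, averaged 351.7 ± 85.4 CPM in KYZY, 341.5 ± 78.7 CPM in stress and 279.7 ± 79.8 CPM in control oocytes (n = 3 mice a group, SD). Polb, the repair polymerase, averaged 9.822 ± 3.49 CPM in KYZY, 5.587 ± 0.672 CPM in stress and 7.4 ± 2.88 CPM in control oocytes. Its KYZY libraries all lay above its stress libraries, as did those of 3.76% of all genes. Of 10 methyl-CpG readers, 5 were higher and 5 lower in stress, with Mbd5 at 0.30 (SE 0.208), Mbd6 at 0.39 (SE 0.214) and Zbtb33 at -0.19 (SE 0.223) as log2 fold changes.

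Of 9 enzymes around 2-oxoglutarate, the cosubstrate of Tet enzymes, 1 was higher and 8 lower in stress against control, with a median log2 fold change of -0.24. The higher one was Ogdh, a subunit of the complex that consumes 2-oxoglutarate, at 58.09, 44.44 and 37.59 CPM in KYZY, 80.91, 77.79 and 78.13 CPM in stress and 53.92, 54.96 and 37.5 CPM in control libraries. All 3 stress libraries lay above the 6 others, and its log2 fold change was 0.69 (SE 0.223) in stress against control. It was -0.76 (SE 0.224) in KYZY against stress. Of all genes, 3.51% were apart and higher in the first comparison and 5.44% were apart and lower in the second. Glud1 had a log2 fold change of -0.25 (SE 0.193) and Idh3a of -0.05 (SE 0.232) in stress against control. Of 16 kept genes of the methyl donor cycle, which supplies S-adenosylmethionine, 10 were higher and 6 lower in stress against control. In KYZY against stress, 4 were higher and 12 lower, where 50.8% of all genes were higher. In that comparison, 7 methyl-CpG readers were higher and 3 lower, and 10 and 6 genes of base excision. The split was 10 and 6 for imprinted genes, 5 and 4 for enzymes around 2-oxoglutarate and 7 and 8 for maintenance partners. It was 4 and 6 for imprint protection and 3 and 6 for histone marks. Mat1a, an enzyme that makes S-adenosylmethionine, averaged 14.76 ± 3.74 CPM in KYZY, 23.19 ± 5.88 CPM in stress and 15.54 ± 2.95 CPM in control oocytes (SD over 3 mice in each group), with overlap between all groups. The abundant Mat2b, at a mean of 2461 CPM, and Mthfd2 had log2 fold changes of 0.14 and -0.06 in stress against control.

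Of 16 kept imprinted genes, 7 were higher and 9 lower in stress against control. Grb10, a growth regulator, averaged 14.99 ± 1.18 CPM in KYZY, 21.65 ± 3.64 CPM in stress and 17.84 ± 1.46 CPM in control oocytes (n = 3 mice a group, SD). Its KYZY libraries lay below those of both other groups. Of all genes, 5.44% were apart and lower in KYZY against stress and 4.79% in KYZY against control. Mest and Gnas had log2 fold changes of 0.09 (SE 0.241) and -0.15 (SE 0.246) in stress against control. No methylation of DNA was measured in these samples, so the levels of the enzymes are not tied to the mark itself.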

How the data were processed

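RNA was measured in 9 libraries, 3 per group, 1 library per mouse. The deposited tables hold expected counts per gene, estimated by the authors and not normalized. The unit was read from the whole-number values and from the tools named. Per the submitters' processing notes these were bcl2fastq 2.20, Trim Galore, HISAT2, StringTie and DESeq2 with GRCm38 and mm10, without roles or settings.

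Members, lists and alternatives were chosen with earlier results of these data known. Counts were fitted in R 4.3.3 with edgeR 4.0.16 (limma 3.58.1): TMM scaling, filterByExpr (minimum count 10, minimum total 15; 13890 of 24736 genes kept), and a robust quasi-likelihood fit with 1 mean per group, 9 libraries and 6 residual degrees of freedom. F tests were 2-sided, with Benjamini-Hochberg adjustment over all genes kept and a threshold of 0.05. Standard errors were the log2 fold change divided by the root of F. The procedure was tested on simulated data. Total counts were 46324094 to 106990821, and the floor for a gene at 0, set at 3 read pairs or 12 counts, was 0.105 to 0.245 CPM per library. No 2 libraries held identical values, and p-values measure the spread between mice.

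Every member was named. From each list, the gene of highest mean CPM and those of largest rise and fall in stress against control among genes of at least 5 CPM were named, and for each member of at least 10 CPM the 3 closest genes. Genes named beyond this rule, Tdg, Pgr, Areg and Idh1, were chosen after their values were seen. Gene coordinates are from a RefSeq gene table, transcript lengths and exon overlaps from GENCODE vM21, and promoters from the RefSeq table of GRCm38.p6. Same-numbered stress and control libraries deviated together, with correlations of 0.165, 0.376 and 0.345, each above the minimum of 0.1 set for pairing. The labels do not say that a number marks a shared litter, batch or day, so the reported fit was unpaired. For KYZY against stress the correlations were 0.344, -0.196 and 0.102, and for KYZY against control 0.558, -0.099 and 0.643. The values of -0.196 and -0.099 fell under the minimum, although 0.558 and 0.643 were the highest of all. Alternatives were DESeq2 1.42.0, RLE factors, other filters, counts divided by 4, only the groups compared, a replicate block and leaving out each library.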

Additional observations from a re-analysis of the deposited data

How the results depend on the processing

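The number of genes called was 0 in every comparison under RLE factors, no filter, a stricter filter, counts divided by 4, plain totals and the replicate block (0 in each comparison). DESeq2 called 22 genes in stress against control, 13 in KYZY against stress and 1 in KYZY against control. Fitting only the 2 groups compared called 1 gene in KYZY against stress. Leaving out single libraries gave 0 to 2 genes in stress against control, 0 to 1 in KYZY against stress and 0 to 3 in KYZY against control, and the highest counts, 2, 1 and 3, all came without control 3. Without the 4 libraries of highest cumulus marker score (KYZY 2, KYZY 3, stress 3 and control 3), a choice made after seeing the data, 148, 115 and 119 genes were called; this leaves KYZY 1 alone, assumed to vary like the other groups. The cause of these differences was not tested. No member was called in any setting. Of 486 alternative log2 fold changes of members, 47 had another sign than the reported value. They fell in 16 of the 27 comparisons of a member, so most directions turned in at least 1 setting. Tet1, Dnmt3b and Tet2 had no other sign in either KYZY comparison under the 18 settings. Tet1 ranged from -2.07 to -1.33 against stress and from -2.01 to -1.71 against control. Dnmt3b ranged from -0.71 to -0.27 and from -0.80 to -0.52, and Tet2 from -0.76 to 0 and from -0.95 to -0.09. The TMM-scaled KYZY values of Tet1 and Dnmt3b lay below all others, so leaving out single libraries could hardly turn their signs. Nothing further is read from these signs. Depth limits Tet1, at about 6 read pairs per KYZY library, and Tet2.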

Other observations

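Idh1, which makes 2-oxoglutarate in the cytosol, stood at 23.15, 165.6 and 101.4 CPM in KYZY libraries, at 17.87, 33.8 and 44.67 CPM in stress libraries and at 22.12, 24.72 and 66.8 CPM in control libraries. Its highest libraries, KYZY 2, KYZY 3 and control 3, were also those with the highest summed cumulus and granulosa markers, at 316.8, 649.1 and 347.9 CPM, and the part of these cells in its level was not tested. The blood and immune markers summed to 66.28 CPM in KYZY 2, against 1.224 to 11.52 CPM in the 8 other libraries. Lyz2 alone gave 58.13 CPM of the sum in KYZY 2.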
